A study of Homo sapiens with 12 samples.

Results

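The comparison asked what PUE adds to SW480 cells that already receive GLY. Its members were the 3 libraries labelled GLY_PUE and the 3 labelled GLY, which makes 6 of the 12 libraries of the series. The groups were taken from the treatment labels, and the libraries were paired by the replicate number in the titles. All 3699 genes of the deposited table were read in them, and 3429 passed a filter on low counts and were tested. SW480 is a line established from a human colorectal adenocarcinoma, and RNA was sequenced from bulk cultures. PUE and GLY are kept as abbreviations, since the labels do not spell them out. The GLY cells received GLY alone, the GLY_PUE cells received GLY and PUE together, and neither group lacked GLY. Both groups had 12 h of growth followed by 12 h of treatment per the protocol. The treatment labels, however, give 12, 13 and 14 h for GLY libraries 1 to 3 and 12 h for the GLY_PUE libraries. The other 6 libraries were untreated cells and cells given PUE alone (3 each), and they serve here only to show what PUE did without GLY. Nothing in the labels says that replicates were separate cultures, so p-values describe only how far these libraries vary, and that variation could be technical.

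The study's title places it in the Wnt pathway. In this pathway a destruction complex built on APC and AXIN proteins marks beta-catenin (CTNNB1) for degradation. When a Wnt ligand binds its Frizzled receptor, or when APC is truncated as in SW480 and many other colorectal tumours, beta-catenin enters the nucleus with TCF and LEF factors and switches on targets such as AXIN2, LGR5, RNF43 and MYC. Several of those targets are themselves inhibitors of the pathway, so their RNA is widely read as a measure of its activity.

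Every gene in the table had at least a 2-fold ratio with a q-value no higher than 0.001 in at least 1 of the authors' comparisons. The list is thus selected for change somewhere in the series. Library totals were 19.7 to 21.4 M reads. Listed genes took 13.92, 14.97 and 15.36% of reads in GLY libraries 1 to 3 and 14.98, 15.19 and 15.13% in GLY_PUE libraries 1 to 3. Levels are given as CPM, a gene's count scaled to an equal total in every library, and with a count of 0 the level could still be up to 0.152 CPM by counting error alone. Of 25 intestinal epithelial markers 5 were in the table. Among them CDX2, a transcription factor of the intestinal lineage, had 18.4, 12.5 and 8.96 CPM in GLY and 11.1, 12.2 and 10.2 CPM in GLY_PUE libraries, and VIL1, the brush border protein villin, 2.39 to 3.74 CPM over all 6. Of 14 leukocyte, 12 fibroblast and 10 endothelial markers the table held 3, 1 and 1. These lists are too thin here to check the cell type, and in bulk RNA fewer cells of a type and less RNA per cell cannot be told apart.

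GLY replicate 1 stood apart from the other GLY libraries, and it did so with base composition. Genes whose transcripts are rich in A and T had fewer reads in it and genes rich in G and C had more. The 4 stretches of coding sequence below show the contrast, with G and C in capitals. Each is the 90-base window, in frame, whose GC content is nearest to that of the gene's longest GENCODE release 29 protein-coding transcript. The genes were picked from those named here after their values were seen, and a window is a picture of composition and not a site.
SLC7A11: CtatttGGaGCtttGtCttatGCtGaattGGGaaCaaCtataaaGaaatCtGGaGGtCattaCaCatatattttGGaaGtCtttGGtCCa
WNT5A: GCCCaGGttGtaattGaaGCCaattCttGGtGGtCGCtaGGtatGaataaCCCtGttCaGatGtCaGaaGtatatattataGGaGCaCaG
SFN: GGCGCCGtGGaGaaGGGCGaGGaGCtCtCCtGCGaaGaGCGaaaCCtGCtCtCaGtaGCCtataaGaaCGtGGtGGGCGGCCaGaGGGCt
NFKB2: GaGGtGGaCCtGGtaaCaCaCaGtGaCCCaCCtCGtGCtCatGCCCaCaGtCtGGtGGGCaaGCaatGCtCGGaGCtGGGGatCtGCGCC

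SLC7A11, the cystine transporter, has a transcript of 35.4% GC, and its level was 16.4 CPM in GLY replicate 1 against 62.9 and 76.9 in GLY replicates 2 and 3 and 65.8, 70.4 and 66.0 in the GLY_PUE libraries. WNT5A, a ligand of the pathway (42.3% GC), had 3.92, 21.2 and 21.3 CPM in GLY and 19.4, 23.1 and 22.3 CPM in GLY_PUE. SFN, the 14-3-3 sigma protein induced by p53 (62.8% GC), went the other way, with 1778, 910 and 768 CPM in GLY and 951, 937 and 761 CPM in GLY_PUE. NFKB2, a subunit of NF-kB (62.4% GC), had 166, 110 and 93.3 against 99.2, 102 and 91.4 CPM. In all 4 genes GLY replicate 1 was the only one of the 6 libraries far from its neighbours. With this library included, a comparison over all 3 pairs shows low-GC genes higher and high-GC genes lower with PUE. Fold changes over all 3 pairs are therefore set beside those over pairs 2 and 3. By the treatment labels, only pair 1 has equal times, at 12 h. Pairs 2 and 3 set 13 and 14 h of GLY against 12 h of GLY_PUE, and an effect of this was not tested.

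Pair by pair, the log2 ratio of GLY_PUE to GLY (CPM with 0.5 added) was taken over 2420 genes with a mean of at least 2 CPM. In pair 1 its standard deviation across genes was 0.96, 678 genes were higher and 59 lower by 2-fold or more, and Pearson's r with GC content across 2374 genes was −0.76. Pair 2 had a standard deviation of 0.24, 6 genes higher and 6 lower by 2-fold, and r = −0.13. Pair 3 had 0.31, 18 higher and 5 lower, and r = 0.37. Without GLY, the PUE library differed from the untreated library of the same number with standard deviations of 0.18, 0.23 and 0.21. Pair 2 was thus about as wide as its counterpart without GLY, while pair 3 was wider than its own, in which 3 genes were higher and 4 lower by 2-fold.

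**Figure D1:**
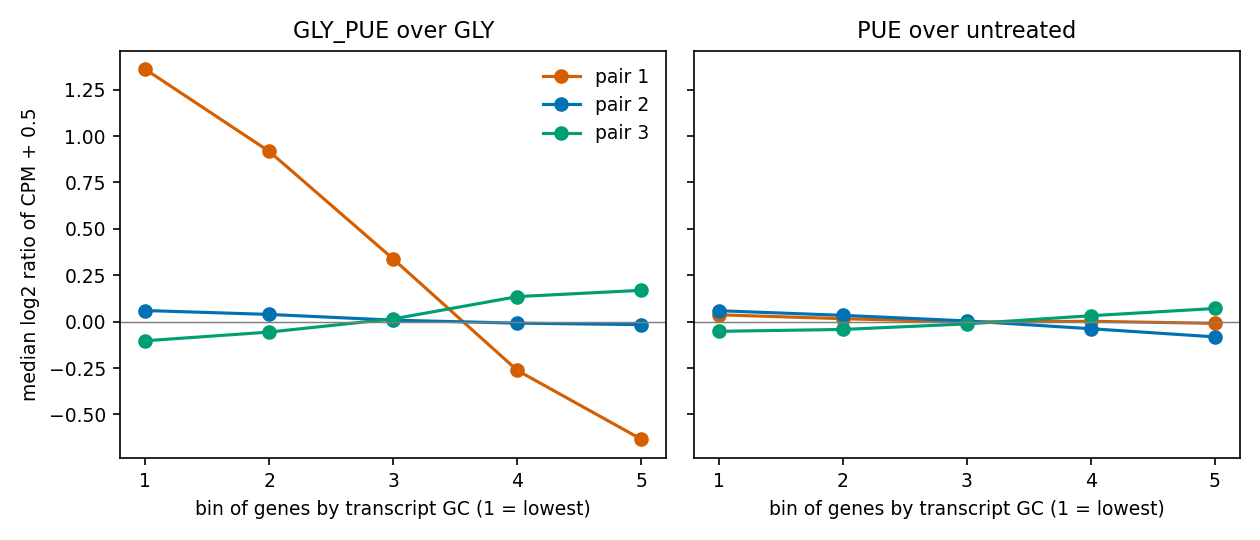
Median log2 ratio (CPM + 0.5) in 5 equal bins of 2374 genes ordered by transcript GC content, for the 3 pairs of GLY_PUE over GLY (left) and of PUE over untreated (right). Pair 1 on the left runs from 1.36 in the lowest bin to −0.63 in the highest, and every other line stays between −0.10 and 0.17.

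With the genes in 5 bins of GC content, the median of pair 1 went from 1.36 in the lowest bin (30.2 to 41.2% GC) through 0.92, 0.34 and −0.26 to −0.63 in the highest (59.3 to 74.7%). The median of pair 2 went from 0.06 to −0.02 and that of pair 3 from −0.10 to 0.17. The slope of pair 3 thus had the opposite sign to that of pair 1 at a smaller size. Across the 2420 genes the ratios of pairs 2 and 3 had r = −0.05, pairs 1 and 2 r = 0.18 and pairs 1 and 3 r = −0.30. These are descriptions across genes, which share libraries and base composition and are not independent replicates.

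No gene passed the test for PUE on top of GLY. In edgeR's quasi-likelihood fit of all 12 libraries with the replicate number as a block, 0 of 3429 genes (0%) had a Benjamini-Hochberg adjusted p under 0.05, and the smallest adjusted p was 0.770. At an unadjusted p under 0.05 there were 115 genes (3.35%), 90 higher and 25 lower with PUE. DESeq2 and limma-voom in the same design also called 0. In the fit of pairs 2 and 3 (10 libraries) 0 of 3509 genes (0%) passed, 138 were higher and 24 lower at an unadjusted p under 0.05 (4.62% together), and the smallest adjusted p was 0.0896. For that fit DESeq2 called 5 genes and limma-voom 0. PUE against untreated in the same 12-library fit gave 0 of 3429 (0%), with 19 at an unadjusted p under 0.05.

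How small a change these libraries could show differed between the 2 fits. The median standard error of a log2 fold change was 0.31 with all 3 pairs and 0.24 with pairs 2 and 3. Both fits share the replicate terms between libraries with and without GLY, so replicate differences that depend on GLY count as spread. For 1777 genes (51.8%) the 95% interval lay within a 2-fold change either way with all pairs, and for 2265 (64.5%) with pairs 2 and 3. Within 0.5 on the log2 scale it lay for 171 (4.99%) and 1010 (28.8%). A gene that missed the threshold is therefore not shown to be unchanged, but for 2265 genes the interval of pairs 2 and 3 does not reach 2-fold.

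By rank alone, 110 genes (3.21%) had all 3 GLY_PUE libraries above all 3 GLY libraries and 55 (1.6%) had them below. A direction shared by all 3 pairs was seen in 621 genes higher (18.1%) and 258 lower (7.52%). Only 2 genes were higher and 2 lower by 2-fold in both pairs 2 and 3. These counts include no correction for GC content, and GLY replicate 1 enters all but the last.

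Targets of Wnt signalling showed no called change with PUE. The table held 29 of 39 genes on the list, all were tested, and none passed in either fit. AXIN2, the negative regulator and common reporter of the pathway, had 99.4, 125 and 91.1 CPM in GLY and 122, 118 and 89.6 CPM in GLY_PUE libraries 1 to 3. The groups overlapped in full, and the log2 fold change was 0.07 (SE 0.19) over 3 pairs and −0.05 (95% interval −0.45 to 0.35) over pairs 2 and 3. RNF43, a ubiquitin ligase that removes Frizzled receptors, had 15.9, 13.2 and 9.15 against 13.5, 14.3 and 10.5 CPM (log2 0.01, SE 0.23, and 0.16, SE 0.20, over pairs 2 and 3). APCDD1, an inhibitor at the cell surface, had 28.5, 28.8 and 20.5 against 26.1, 27.0 and 23.6 CPM (log2 −0.03, SE 0.30, and 0.03 over pairs 2 and 3). For each of these 3 genes replicate 3 was the lowest of its group in GLY and in GLY_PUE.

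SP5, a transcription factor that damps Wnt targets, had 15.016, 10.5 and 6.05 CPM in GLY and 9.31, 10.0 and 7.90 CPM in GLY_PUE (log2 −0.20, SE 0.30, and 0.11, SE 0.27, over pairs 2 and 3). BMP4, a growth factor of the transforming growth factor beta family, had 25.5, 22.8 and 16.6 against 17.3, 21.4 and 17.8 CPM (log2 −0.20, SE 0.22, and −0.01 over pairs 2 and 3). The inhibitor DKK1 had 15.1, 34.4 and 25.2 against 31.7, 32.2 and 20.9 CPM, and its sign turned from 0.21 over 3 pairs to −0.17 (interval −0.59 to 0.24) over pairs 2 and 3. GLY replicate 1 was the highest of the 6 libraries for SP5 and BMP4 and the lowest for DKK1. DKK4, a second secreted inhibitor, was low, with 0.563, 0.847 and 0.861 CPM in GLY and 1.02, 1.01 and 1.17 CPM in GLY_PUE. Its groups did not overlap, and the log2 fold change of 0.54 (SE 0.56, adjusted p = 0.772 in edgeR) did not pass.

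MYC, the growth-promoting transcription factor, had 701, 1275 and 1246 CPM in GLY and 1206, 1255 and 1185 CPM in GLY_PUE libraries. With GLY replicate 1 the log2 fold change was 0.22 (SE 0.21), and over pairs 2 and 3 it was −0.05 (interval −0.45 to 0.35). CCND1, cyclin D1, had 505, 740 and 393 against 657, 720 and 410 CPM (log2 0.13, SE 0.19, and 0.00 over pairs 2 and 3). LGR5, the R-spondin receptor that marks intestinal stem cells, was at or under 0.189 CPM in all 6 libraries, which is near what a count of 0 allows, so no difference was detectable at this depth.

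**Figure D2:**
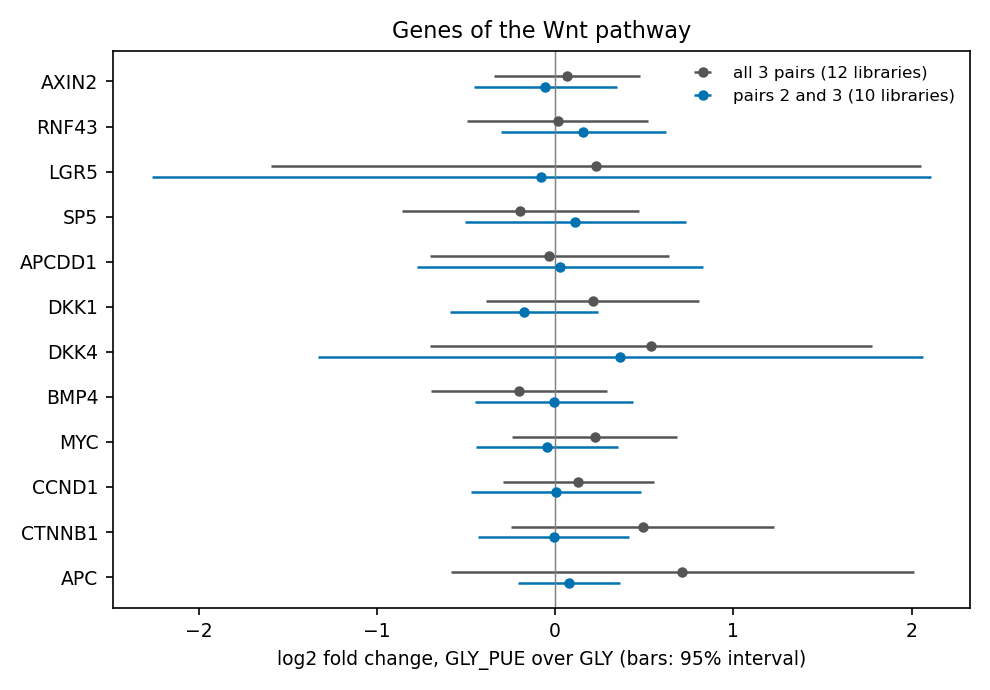
Log2 fold change of GLY_PUE over GLY for 12 genes of the Wnt pathway, with 95% intervals, from the fit of all 12 libraries (grey) and that of pairs 2 and 3 (blue). Every interval crosses 0, CTNNB1 and APC move to near 0 without pair 1, and LGR5 has the widest interval in both fits.

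Over the 29 targets the median log2 fold change was 0.07 in the 3-pair fit, beside 0.13 over all genes tested, and 0.00 over pairs 2 and 3, beside 0.03. In pairs 2 and 3 the values ran from −0.47 (ZCCHC12) to 0.37 (DKK4), and 24 of the 29 intervals lay within a 2-fold change. CEMIP, a hyaluronan-binding protein, was the target with the smallest p over 3 pairs. It had 1.61, 3.65 and 5.07 CPM in GLY and 4.78, 5.04 and 5.78 CPM in GLY_PUE (log2 0.70, SE 0.30, unadjusted p = 0.0387 in edgeR, adjusted p = 0.770). Over pairs 2 and 3 it was 0.34 (SE 0.25), and the ratio was 1.33 in pair 1 against 0.42 and 0.17 in the others. SOX9, a transcription factor of intestinal progenitors, had 49.1, 171 and 73.4 against 146, 179 and 74.2 CPM, and only pair 1 differed widely.

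Among components of the pathway 18 of 45 were in the table and tested, and none passed. CTNNB1, beta-catenin itself, had 106, 363 and 296 CPM in GLY and 356, 362 and 293 CPM in GLY_PUE. APC, the scaffold of the destruction complex, had 3.78, 41.7 and 33.3 against 39.2, 48.4 and 31.7 CPM. TCF7L2, the main TCF factor of the gut, had 7.42, 27.9 and 27.8 against 24.5, 31.8 and 29.1 CPM. In all 3 genes GLY replicate 1 was far below the other 5 libraries, and log2 fold changes of 0.49, 0.71 and 0.52 over 3 pairs came to −0.01, 0.08 and 0.13 over pairs 2 and 3. The transcripts of these genes have 42.6, 39.6 and 45.8% GC. Across the 18 components the values in pairs 2 and 3 ran from −0.29 (WNT11) to 0.23 (FZD8), with a median of 0.01.

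Lists of chaperones had medians below 0 in pair 3 and near 0 in pair 2, and no member passed. The 12 genes of the unfolded protein response, which adjusts folding capacity in the endoplasmic reticulum, had pair medians of 0.39, −0.02 and −0.24, and a median of 0.06 over 3 pairs and −0.16 over pairs 2 and 3. HSPA5, the chaperone BiP, had 2743, 3512 and 7588 CPM in GLY and 4018, 3445 and 6576 CPM in GLY_PUE. HSP90B1, its HSP90 partner in that compartment, had 517, 853 and 1913 against 915, 823 and 1597 CPM. In both genes replicate 3 was the highest of its group with and without PUE, and the groups overlapped.

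The 9 heat shock genes, chaperones of the cytosol, had pair medians of 0.25, 0.02 and −0.30. HSPA1A, an inducible HSP70, had 415, 532 and 1104 CPM in GLY and 662, 541 and 792 CPM in GLY_PUE. DNAJB1, its HSP40 partner, had 485, 419 and 572 against 437, 386 and 467 CPM, lower in each pair (log2 −0.19, SE 0.18, and −0.21 over pairs 2 and 3). All 9 had a negative fold change in the fit of pairs 2 and 3, from −0.45 (HSPA6) to −0.08 (HSPB8), with none at an unadjusted p under 0.05. Only 2 of the 9 were lower in both of those pairs, beside 681 of all 3429 genes tested. The 9 targets of NRF2, the transcription factor of the oxidative stress response, had pair medians of 0.31, 0.15 and −0.24. HMOX1, the heme-degrading enzyme among them, had 135, 108 and 89.5 CPM in GLY and 135, 123 and 71.6 CPM in GLY_PUE, and 1 of the 9 was lower in both pairs 2 and 3.

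The 17 tested targets of ATF4, the transcription factor of the amino acid response, had pair medians of −0.09, −0.02 and −0.04. In pair 1 the members lay far apart on both sides, such as SLC7A11 at 1.97 and TRIB3 at −0.60, and the fold changes over pairs 2 and 3 ran from −0.22 (ATF3) to 0.08 (CHAC1). ASNS, asparagine synthetase, had 673, 658 and 1082 CPM in GLY and 688, 650 and 1050 CPM in GLY_PUE. TRIB3, a pseudokinase induced by ATF4, had 911, 589 and 781 against 600, 589 and 751 CPM. For ASNS the interval over pairs 2 and 3 was −0.45 to 0.38 and for TRIB3 −0.60 to 0.53. The 11 p53 targets ran from −0.14 to 0.18 in pairs 2 and 3, and all 11 intervals lay within a 2-fold change.

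Cell cycle genes show how far pair 1 carries a list. The 28 genes of G2 and mitosis had a median ratio of 0.96 in pair 1, −0.04 in pair 2 and −0.03 in pair 3, and their median GC content was 40.8%, against 50.9% over all genes tested. None passed, and in pairs 2 and 3 all 28 intervals lay within a 2-fold change. CDK1, the mitotic kinase, had 16.2, 33.9 and 61.1 CPM in GLY and 34.3, 33.0 and 54.6 CPM in GLY_PUE. KIF14, a mitotic kinesin, had 2.14, 19.6 and 26.9 against 19.5, 21.8 and 26.7 CPM. MKI67, the proliferation antigen Ki-67, had 76.2, 186 and 126 against 151, 195 and 194 CPM and a log2 fold change of 0.34 (SE 0.15, unadjusted p = 0.0574 in edgeR) over pairs 2 and 3. CENPF, a kinetochore protein, had 23.1, 76.4 and 56.996 against 65.2, 83.1 and 72.5 CPM (0.23, SE 0.14, over pairs 2 and 3). For both genes the ratio of pair 3, 0.62 and 0.34, was above that of pair 2, 0.07 and 0.12. The 23 genes of the G1 to S transition had pair medians of 0.17, −0.01 and 0.02, and all 23 intervals in pairs 2 and 3 lay within a 2-fold change.

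**Figure D3:**
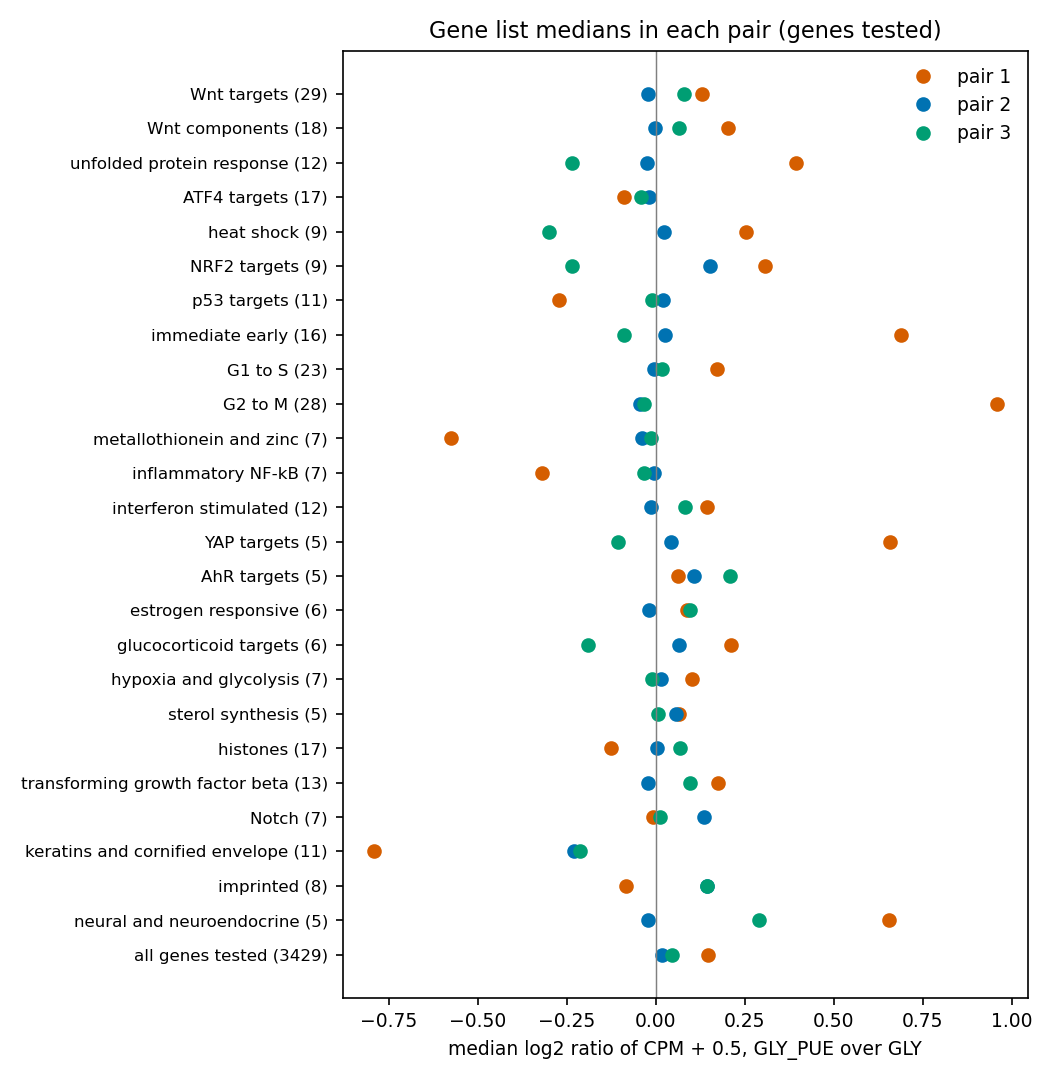
Median log2 ratio (CPM + 0.5) of GLY_PUE over GLY in each of the 3 pairs, for every list with at least 5 genes tested (number in brackets) and for all genes tested. The pair 1 medians spread from −0.79 for keratins to 0.96 for G2 to M genes, while those of pairs 2 and 3 stay between −0.30 and 0.29.

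Keratins and genes of the cornified envelope, which stiffen epithelial cells, had negative medians in every pair, at −0.79, −0.23 and −0.21. Of the 11 tested, 6 were lower in all 3 pairs, beside 7.52% of all genes tested. In both pairs 2 and 3, 7 were lower, beside 681 of all 3429 genes tested, and none passed. KRT7, a simple epithelial keratin, had 6.51, 3.85 and 2.60 CPM in GLY and 2.99, 2.78 and 2.18 CPM in GLY_PUE (log2 −0.62, SE 0.22, unadjusted p = 0.0191 in edgeR, adjusted p = 0.770). Over pairs 2 and 3 it was −0.36 (SE 0.20). KRT86, a hair keratin, had 17.2, 9.57 and 13.5 against 8.41, 8.05 and 12.7 CPM (log2 −0.47, SE 0.23, and −0.16, SE 0.17, over pairs 2 and 3). The list's median GC content was 61.0%, at the end of the range where GLY replicate 1 read high, and GLY_PUE was lower in pairs 2 and 3 by less.

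Of 12 interferon-stimulated genes 2 had an unadjusted p under 0.05, beside 3.35% of all genes tested, and none passed. By direction 2 were higher and 3 lower in all 3 pairs. IFIT2, an antiviral protein, was listed at 0, 0 and 0.141 CPM in GLY and at 0.187, 0.283 and 0.237 CPM in GLY_PUE, all near the level a count of 0 allows. IRF9, the DNA-binding part of the interferon-activated complex ISGF3, had 2.31, 1.87 and 1.88 CPM in GLY and 2.25, 2.83 and 3.88 CPM in GLY_PUE. Its log2 fold change was 0.55 (SE 0.24) over 3 pairs and 0.83 (SE 0.23, unadjusted p = 0.00595 in edgeR, adjusted p = 1.00) over pairs 2 and 3. IFI6, an interferon-induced mitochondrial protein, had 3.73, 3.23 and 3.33 against 2.72, 2.92 and 3.22 CPM, just short of overlapping (log2 −0.23, SE 0.27). The list's pair medians were 0.14, −0.01 and 0.08. The medians of its fitted fold changes, 0.47 over 3 pairs and 0.20 over pairs 2 and 3, include genes near 0 such as IFIT2, fitted at 2.21.

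Among 8 imprinted genes NNAT and L3MBTL1 had an unadjusted p under 0.05 with all pairs, and SGCE joined them in pairs 2 and 3, beside 3.35% and 4.62% of all genes tested. Imprinted genes are read from the copy of 1 parent. L3MBTL1, a chromatin-binding repressor, had 1.27, 1.54 and 2.63 CPM in GLY and 1.69, 1.88 and 4.97 CPM in GLY_PUE (log2 0.56, SE 0.22, and 0.65 over pairs 2 and 3). SGCE, the membrane protein epsilon-sarcoglycan, had 0.590, 0.337 and 0.155 against 0.719, 0.627 and 1.24 CPM. In all 3 pairs 3 of the 8 were higher and 2 lower. CDKN1C, an inhibitor of the cell cycle, had 7.84, 6.23 and 6.99 against 6.14, 5.23 and 6.11 CPM, all 3 lower without overlap (log2 −0.27, SE 0.21). The 5 genes other than NNAT, L3MBTL1 and SGCE, with CDKN1C, GRB10 and IGF2 among them, had log2 fold changes of −0.23 to 0.20 in pairs 2 and 3. CYP1B1, a target of the aryl hydrocarbon receptor, was listed at 0, 0.370 and 0.375 CPM in GLY and 0.468, 0.726 and 0.710 CPM in GLY_PUE, whereas CYP1A1, the receptor's best known target, had 0.992, 0.796 and 1.08 against 0.890, 0.895 and 0.947 CPM. In all, 32 lists were read: no member of any list passed in either fit, and 1 list, targets of the receptors PXR and CAR, had no member that could be tested.

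The genes with the smallest p were low in level, and most were higher with PUE. NOS1, neuronal nitric oxide synthase, had 0.657, 0.556 and 0.919 CPM in GLY and 1.70, 1.40 and 2.16 CPM in GLY_PUE. All 3 libraries with PUE lay above all 3 without, the log2 fold change was 1.28 (SE 0.30; unadjusted p = 0.00141, adjusted p = 0.770 in edgeR), and over pairs 2 and 3 it was 1.25 (SE 0.36). NNAT, the imprinted membrane proteolipid neuronatin, had 0.189, 0.187 and 0.328 against 0.656, 0.801 and 0.727 CPM (log2 1.61, SE 0.38, and 1.54 over pairs 2 and 3). The GLY values of NNAT were near the level that a count of 0 allows. In the absence of GLY the same genes gave −0.05 (NOS1) and 0.30 (NNAT) with PUE.

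CIDEB, a protein of lipid droplets and lipoprotein assembly, had 0.591, 1.55 and 1.71 CPM in GLY and 1.61, 2.38 and 4.90 CPM in GLY_PUE (log2 1.18, SE 0.29), higher in each pair although the groups overlapped. ZNF117, a zinc finger gene, had 0.612, 0.472 and 1.23 against 1.29, 1.73 and 2.72 CPM (log2 1.39, SE 0.37). DOK3, an adaptor of immune receptor signalling, had 0.803, 0.749 and 0.797 against 0.984, 1.46 and 2.13 CPM (log2 0.92, SE 0.28). Over pairs 2 and 3 the log2 fold changes were 1.14 for CIDEB, 1.52 for ZNF117 and 1.196 for DOK3. ZNF117 and DOK3 had groups that did not overlap, and in all 3 genes GLY_PUE replicate 3 was the highest of the 6 libraries.

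**Figure D4:**
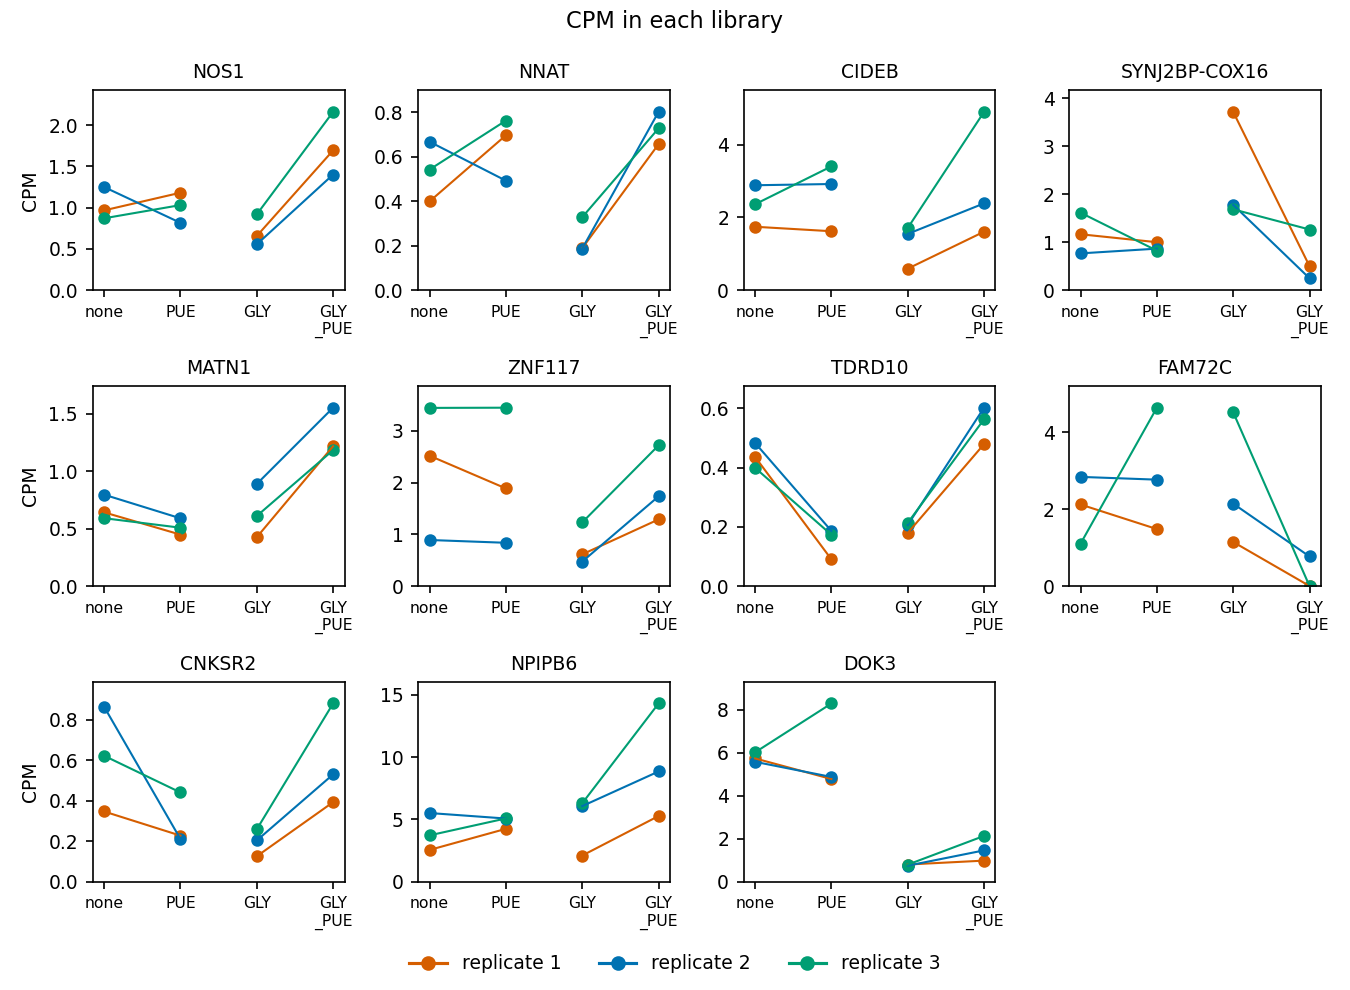
CPM in each of the 12 libraries for 11 of the named genes, with lines joining the PUE and no-PUE libraries of the same replicate number. They were picked from genes named for a small p of GLY_PUE against GLY or of the difference between the PUE effects. Log2 fold changes of GLY_PUE over GLY not given in the text were 1.05 (MATN1), 1.40 (TDRD10), 1.51 (CNKSR2) and 1.00 (NPIPB6). With GLY (right of each panel) the 3 lines run the same way in every panel, which follows in part from picking genes by small p. Without it (left) they do so in some, such as TDRD10.

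Of the 10 genes with the smallest p among those lower with PUE, 3 are joined or duplicated genes, and KRT7, the calcium-binding S100A5 and the RNA-binding MSI1 were others. SYNJ2BP-COX16, a read-through transcript of 2 neighbouring genes, had 3.72, 1.78 and 1.69 CPM in GLY and 0.502, 0.249 and 1.27 CPM in GLY_PUE (log2 −1.89, SE 0.47, and −1.33, SE 0.54, over pairs 2 and 3). FAM72C had 1.15, 2.15 and 4.52 against 0, 0.769 and 0 CPM (log2 −3.39, SE 0.92, and −3.13 over pairs 2 and 3). It is 1 of 4 near-identical FAM72 genes, among which reads can be split in more than 1 way, and their sum was 11.8, 27.3 and 46.0 CPM in GLY against 24.5, 25.8 and 44.6 CPM in GLY_PUE. UGT1A3 had 0.573, 0.515 and 1.21 against 0.200, 0.166 and 0.334 CPM (log2 −1.67, SE 0.49, and −1.69 over pairs 2 and 3). It shares its last exons with the other UGT1A enzymes, which add glucuronic acid to drugs and bilirubin, and the 4 listed ones summed to 4.66, 5.99 and 8.21 against 5.42, 5.60 and 7.24 CPM. For FAM72 and UGT1A the member was lower with PUE in all 3 pairs while the family sum had log2 ratios of −0.17 to −0.05 in pairs 2 and 3.

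The genes nearest to the threshold were also an overlapping pair. GALNT4, an enzyme that starts O-linked glycosylation, and POC1B-GALNT4, the read-through transcript that contains it, had the smallest adjusted p in pairs 2 and 3, at 0.0896 each in edgeR. GALNT4 had 0, 2.10 and 1.31 CPM in GLY and 2.06, 6.64 and 4.54 CPM in GLY_PUE, a log2 fold change of 1.72 (SE 0.22) over pairs 2 and 3. POC1B-GALNT4 had 1.79, 4.54 and 4.998 against 4.03, 1.71 and 1.22 CPM, a log2 fold change of −1.71 (SE 0.21). In pairs 2 and 3 one was higher by about as much as the other was lower. Their RefSeq spans overlap, and their sum was 1.79, 6.64 and 6.31 CPM in GLY against 6.09, 8.34 and 5.77 CPM in GLY_PUE, log2 ratios of 1.53, 0.31 and −0.12 in pairs 1, 2 and 3. How reads were shared between the 2 entries in the authors' counting was not tested.

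**Figure D5:**
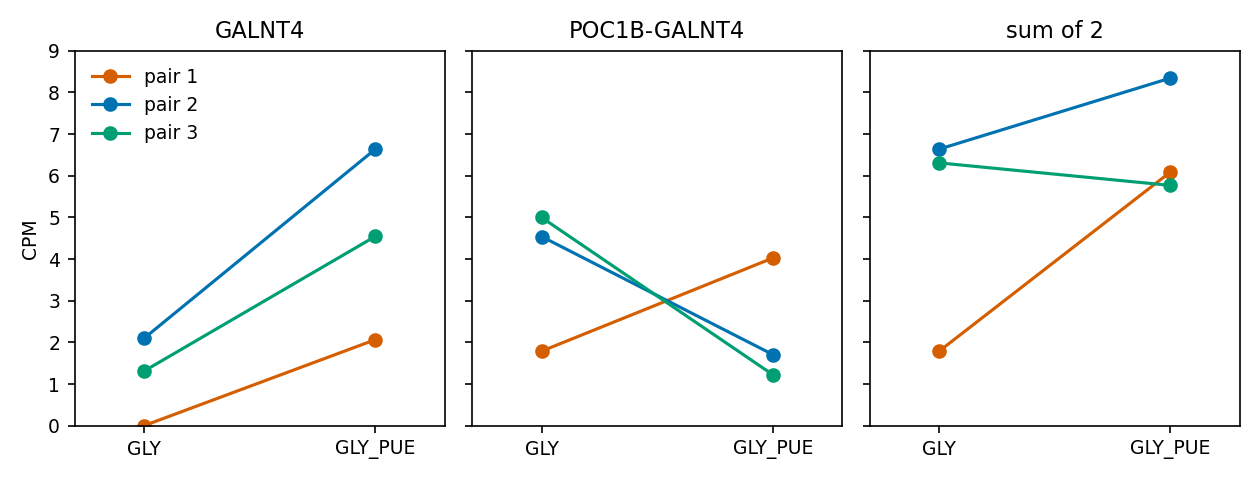
CPM of GALNT4, of the read-through POC1B-GALNT4 and of their sum in the GLY and GLY_PUE library of each pair. In pairs 2 and 3 the first ends higher and the second lower with PUE, and the sum ends at 8.34 and 5.77 CPM from 6.64 and 6.31.

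A fit restricted to the 4 libraries of pairs 2 and 3, with 1 residual degree of freedom, called more. In it 35 of 3054 genes (1.15%) were called higher and 2 (0.0655%) lower, with 257 at an unadjusted p under 0.05. Beside GALNT4 (1.71) the higher calls included OGT, the enzyme that adds N-acetylglucosamine to nuclear and cytosolic proteins (log2 0.52, SE 0.10). OGT had 344 and 619 CPM in GLY replicates 2 and 3 and 428 and 1025 CPM in GLY_PUE replicates 2 and 3. PABPC1L, a poly(A)-binding protein, had 31.0 and 50.6 against 40.3 and 116 CPM (log2 0.81, SE 0.12). DMPK, the kinase of myotonic dystrophy, had 9.74 and 10.5 against 14.96 and 16.02 CPM (log2 0.61, SE 0.14). FAT1, a giant protocadherin, had 693 and 236 against 823 and 320 CPM (log2 0.34, SE 0.10), and MDM4, an inhibitor of p53, had 38.8 and 43.7 against 48.2 and 57.7 CPM (log2 0.36, SE 0.10).

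These 35 genes were chosen here from that fit, so what follows describes them and supports nothing. In 31 of the 35 the ratio of pair 3 was larger than that of pair 2, with medians of 0.85 and 0.36. In pair 1, which the fit did not use, 18 of the 35 were above 0 (median 0.05). In the PUE-alone pairs 1, 2 and 3, which share no library with it, 23, 12 and 31 were above 0, with medians of 0.04, −0.07 and 0.34. Most of the 35 were thus above 0 in pair 3 with and without GLY. Their median GC content was 51.7%, close to the 50.9% of all genes tested. None of the 35 passed in the 10-library fit, which takes the spread from more libraries. That fit also shares 1 replicate term between libraries with and without GLY. For APCDD1, untreated libraries 1 to 3 had 492, 494 and 956 CPM against 28.5, 28.8 and 20.5 CPM in GLY. Its SE was 0.35 in the 10-library fit and 0.11 in the 4-library fit, while GALNT4 had 0.22 and 0.23. How far the shared term widened the spread was not tested.

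By the authors' deposited ratios and q-values 70 of 3699 genes (1.89%) were marked for GLY_PUE against GLY, 43 higher and 27 lower. Marked here means at least 2-fold in either direction with a q-value no higher than 0.001. Of the 70, 13 are read-through transcripts, which make up 0.84% of the listed genes, and 22 belong to multi-copy families such as GOLGA6, GOLGA8, POTE, NBPF and TBC1D3, which make up 1.89%. A further 11 are numbered or LOC entries. The family names were put together after the marked genes had been seen, so these shares are a description. In 57 of the 70 every one of the 6 libraries was under 5 CPM. In 38 all 3 pairs had the same direction, and in 28 the groups did not overlap, beside 18.1% and 7.52% with a shared direction and 3.21% and 1.6% without overlap over all genes tested, higher and lower. Of the 54 that could be tested here, 26 had an unadjusted p under 0.05, beside 3.35% of all, and none passed. These marks rest on the same libraries, so the counts are no support for them.

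The largest ratios in the authors' deposited table came from genes with values in few libraries. CORO7-PAM16, marked higher there by 6.62 (log2), was listed at 0 CPM in all 3 GLY libraries and at 0, 2.31 and 0.006 CPM in GLY_PUE, and it had 1.93 to 3.65 CPM in untreated cells and 0 in all 3 PUE libraries. GOLGA6L19 (6.97) was at 0 in GLY and at 0.872, 2.07 and 0 CPM in GLY_PUE. CEMP1 (−7.69) had 2.06, 0 and 0.755 CPM in GLY and 0, 0.014 and 0 CPM in GLY_PUE. EIF3CL, a copy of the translation factor gene EIF3C, had a smaller ratio (−2.13) and reads in every GLY and GLY_PUE library. Its levels were 541, 51.0 and 7.19 CPM in GLY and 66.4, 59.2 and 10.3 CPM in GLY_PUE. GLY replicate 1 was far above the other 5 libraries. Of the 70, 32 were also marked by the same limits for GLY against untreated, which shares the GLY libraries. For PUE against untreated, which does not share them, 11 were marked. The share of all listed genes with either mark was not counted, so these counts have nothing to be compared with.

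Whether PUE did something with GLY that it did not do alone was tested as the difference of the 2 effects. In edgeR 0 of 3429 genes (0%) passed, 58 had an unadjusted p under 0.05, and the smallest adjusted p was 0.975. The gene with the smallest p, TDRD10, a tudor domain protein, had 0.436, 0.483 and 0.399 CPM in untreated cells and 0.0900, 0.186 and 0.173 CPM with PUE alone. With GLY it had 0.179, 0.206 and 0.213 CPM, and with both 0.479, 0.602 and 0.563 CPM. The groups did not overlap in either setting, and the difference of the 2 effects was 2.95 on the log2 scale (unadjusted p = 0.00033). Its levels with PUE alone and with GLY alone were near or under what a count of 0 allows. CNKSR2, a scaffold of Ras signalling in neurons, had 0.126, 0.204 and 0.259 CPM with GLY and 0.393, 0.530 and 0.880 CPM with both, against 0.347, 0.864 and 0.622 CPM untreated and 0.228, 0.211 and 0.441 CPM with PUE alone. Across 2420 genes the ratios of same-numbered pairs with and without GLY, which share no library, had r = 0.10, −0.004 and 0.24 for numbers 1, 2 and 3.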

How the data were processed

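The authors deposited 1 table of 3699 genes over 12 libraries. Its headers name a read count and an expression value for each library, and the authors' ratios. The deposited counts are estimated counts (58.2% whole within 0.005), unnormalized, and the authors' expression values, whose unit the headers leave out, behave as FPKM. The authors' log2 ratios and q-values, also deposited, mark the genes. The submitters' processing notes list TopHat and DESeq 1.32.0 without saying what each did. No coordinates are printed, because the genome build is not given in the sources used here.

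Library totals were recovered from the count to FPKM ratio of 625 genes and scaled by 39 single-transcript genes of GENCODE release 29 (first untreated library 20.24 M reads, 95% interval 19.99 to 20.67). After rounding, the estimated counts went into edgeR 4.0.16 (R 4.3.3). The test used filterByExpr, these totals as library sizes, 4 groups and the replicate number as a block over 12 libraries, a robust quasi-likelihood fit, and Benjamini-Hochberg adjustment over all genes tested with 0.05 as the threshold. The fit of pairs 2 and 3 left out GLY and GLY_PUE replicate 1. Standard errors and 95% intervals were derived from the fold change and its F statistic. Transcript GC content was known for 3540 genes (95.7%), and read-through names were matched to RefSeq symbols of GRCh38.p14.

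Replicate numbers were taken to pair the libraries, since each same-numbered correlation was over 0.1. The deviations of same-numbered GLY and GLY_PUE libraries from their group means correlated at 0.12, 0.48 and 0.42 across 2420 genes, and those of untreated and PUE libraries at 0.82, 0.68 and 0.89. Numbers 1 and 2 are not told apart by this, since GLY replicate 2 and GLY_PUE replicate 1 correlated at 0.31 and untreated replicate 2 and PUE replicate 1 at 0.70. The named genes are the 10 smallest p in each direction (average log2 CPM of at least 0), genes called in either fit, the 5 largest of the authors' marked ratios in each direction with a count of at least 20, 12 Wnt genes, 2 per list and 5 of the interaction; 1 of them is not reported here. Others, such as list members, family members and calls of the 4-library fit, were chosen after their values were seen. The comparison, the 32 lists and the tests were chosen with earlier results of these data known. Tried as alternatives were DESeq2 1.42.0, limma-voom (limma 3.58.1), scaling by TMM and by RLE, no filter, a stricter filter and no block. Also tried were a term for number 3, a GC correction, other thresholds, other pseudocounts and each GLY or GLY_PUE library left out. The scripts were tested on simulated data first. Changes were planted only in genes with an average log2 CPM above 1, 50 genes per fold, so recovery in lower genes was not tested. With all 12 libraries (3373 genes tested) 4% of 1.5-fold, 34% of 2-fold and 96% of 3-fold changes were recovered. With pairs 2 and 3 (3460 genes tested) the shares were 14%, 68% and 96%.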

Additional observations from a re-analysis of the deposited data

Results flagged for a closer look

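In 6 of the named genes all 3 pairs went one way when PUE was given alone and the other way when it was added to GLY. MATN1, TDRD10 and CNKSR2 were named for a small p of the difference between the 2 PUE effects. For them opposite directions follow in part from that choice. How many of all genes tested went opposite ways was not counted. Higher on top of GLY and lower alone were MATN1, a cartilage matrix protein, with a difference of the 2 log2 effects of 1.44, TDRD10 with 2.95, CNKSR2 with 2.53 and CFAP44, a protein of the flagellar axoneme, with 1.47. The same held for the Wnt targets CEMIP with 0.80 and DKK4 with 0.70. The difference itself was tested in edgeR, and the adjusted p was 0.975 for each of the 6, so none passed. MATN1 had 0.425, 0.889 and 0.610 CPM with GLY and 1.22, 1.55 and 1.18 CPM with both, and CFAP44 had 0.094, 0.281 and 0.375 CPM against 0.328, 0.615 and 0.852 CPM. With GLY the lowest library of CFAP44 (0.094 CPM) and of CNKSR2 (0.126 CPM) was under the 0.142 CPM that a count of 0 allows there, and TDRD10 had 0.179 to 0.213 CPM. CEMIP and DKK4 were far lower with GLY than without it, DKK4 going from 14.3, 16.1 and 69.6 CPM in untreated cells to 0.563, 0.847 and 0.861 CPM with GLY.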

How the results depend on the processing

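The count of 0 genes for GLY_PUE against GLY was also 0 under the other scalings, filters and tools, and without the replicate block (57 at an unadjusted p under 0.05, against 115 with it). Leaving out each GLY or GLY_PUE library in turn gave 0 to 1 called genes for this comparison. It gave 0 to 1 for the difference of the 2 PUE effects. The untreated and PUE libraries were not left out in this way. The 1 gene, LIMS3, was called without GLY_PUE replicate 2, where it has 17.1 CPM against 0 and 0.011 CPM in GLY_PUE replicates 1 and 3. For pairs 2 and 3, DESeq2 called 5 genes (1 higher, 4 lower), of which PLGLB1, WRB-SH3BGR and FSBP were at 0 in both GLY_PUE libraries. A term for number 3 in place of the replicate block called 2 and an adjusted p under 0.1 gave 2, GALNT4 and POC1B-GALNT4 each time, while only the libraries compared gave 37. PUE against untreated in its own 6 libraries called 1, CORO7-PAM16. With 0.1 CPM as the pseudocount, 17 genes were higher and 5 lower by 2-fold in both pairs 2 and 3, and with 2 CPM there were 0 and 0. TMM, RLE and the GC correction moved the median of all genes by −0.13, −0.11 and −0.11. Of 99 named genes 15 had the other sign without GLY replicate 1 and 18 in pairs 2 and 3. Depth limits genes near 0.152 CPM, and of simulated 2-fold changes 34% were recovered with all 12 libraries and 68% with pairs 2 and 3. For 1.5-fold changes these shares were 4% and 14%.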
